A study of Mus musculus with 32 samples.

Results

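The 41 genes described here encode the machinery that hydroxylates, folds, exports, trims and cross-links fibrillar collagen. They were taken as a list of symbols, with a rule that uses no measured value, although the list was drawn up with earlier results of these data known, and all 41 were found among the 31053 genes of the count matrices. The cells were bone marrow-derived stromal cells grown under osteogenic conditions (BMSC-OBs) from 77 Diversity Outbred (DO) mice, an outbred population descended from several inbred strains. After release with EDTA, collagenase and trypsin, cells of 4 or 5 mice were combined into each of 16 pools and profiled with droplet-based scRNA-seq, where a unique molecular identifier (UMI) tags every captured transcript. All pools shared this culture and there was no treated or control arm, so the comparisons were made between cell classes of the same pool. Each pool was sequenced in 2 runs, HGYVNCCX2 and HHFFMCCX2. The first was used, since 98.2% of its barcodes recurred in the second. The mice were of both sexes, their age is not given in the sources used here, and they were not separated within a pool, so 1 value stands for several animals, and the labels do not say whether pools were cultured or captured on separate days; p-values measure the spread between pools.

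Type I collagen chains are modified in the endoplasmic reticulum (ER) while they are still unfolded. Prolyl 4-hydroxylases stabilise the triple helix, lysyl hydroxylases prepare the residues that later form cross-links, and a prolyl 3-hydroxylation complex together with the chaperone encoded by *Serpinh1* (HSP47) assists folding. Procollagen then leaves the ER in enlarged COPII carriers, its propeptides are removed outside the cell, and lysyl oxidases start the covalent cross-links. Inherited defects in many of these genes, among them *Crtap*, *P3h1*, *Ppib*, *Serpinh1*, *Fkbp10*, *Plod2*, *Bmp1*, *Tmem38b*, *Creb3l1* and *Serpinf1*, cause brittle bones in humans.

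Cells were assigned to classes by marker genes that held none of the 41 members and not *Col1a1*, and the 41 members were also left out of the variable features used for clustering. Classes carry the names of the cell types that the study describes, with the ending -like. Of 84506 cells, 49377 fell into 6 mesenchymal classes and 22963 lay in clusters that could not be named and entered no class. Among the unnamed were shallow clusters of 3987 and 2027 cells with *Dmp1* among their leading genes and medians of 1094 and 2393 UMIs. A deep cluster of 1293 cells (median 18232 UMIs), also with *Dmp1* among its leading genes, scored highest for OB1 but was left unnamed too. There were 19304 late mesenchymal progenitor (LMP)-like cells, 6059 osteoblast progenitor (OBP)-like cells, 3579 OB1-like and 7021 OB2-like cells (the mature osteoblasts), 4122 osteocyte (Ocy)-like cells and 9292 marrow adipogenic lineage progenitor (MALP)-like cells. Each of the 6 marker lists had its highest median summed level in its own class, which the naming largely sets, since clusters were named by these markers. The 8 LMP markers were nearly as high in MALP-like cells, with medians of 73.1 UMIs per 10000 in LMP-like and 61 in MALP-like cells. Counts were summed per pool and class where a class had at least 20 cells. This left all 16 pools for 4 of the classes, 15 for OB1-like cells (without pool 2) and 14 for OB2-like cells (without pools 1 and 2). Total counts per pool were 53990642 to 100777353 UMIs, and median depth per cell ranged from 10344 UMIs in MALP-like to 22635 in OBP-like cells. When cells were instead gated one by one on the same markers, between 40.1% (LMP-like) and 79.9% (MALP-like) of the cells of a mesenchymal class were given the same class, with 54.2% for OB2-like cells. A shallow cluster with a median of 1294 UMIs made up 39.7% of the LMP-like cells and 5.76% of their UMIs. The LMP-like class also took in 2315 cells (median 21948 UMIs) whose cluster was led by cell-division genes such as *Cenpf* and *Ccna2*. That cluster had 0 LMP markers among its leading genes, and its part in the LMP-like comparisons was not tested.

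Levels below are UMIs of a gene per 10000 UMIs of the same pool and class. They were counted at the 3′ end of transcripts and are compared between classes, not between genes. Fold changes were fitted in edgeR (quasi-likelihood) with a block for each pool and TMM normalisation, a scaling that places the bulk of genes near no change; p-values were adjusted over all genes tested by the Benjamini-Hochberg method, and a gene was called at an adjusted p of 0.05 or less. Errors of fold changes are standard errors (SE) and those of levels are SD over pools. Ranges and medians of levels cover all pools of a class with at least 20 cells, also those that a comparison leaves out because the other class lacks them. Scaling by library totals alone moved the median of all genes by -0.29 on the log2 scale for OBP-like against LMP-like, -0.23 for OB1-like against OBP-like, 0.05 for OB2-like against OB1-like, 0.27 for Ocy-like against OB1-like, 0.28 for MALP-like against LMP-like and 0.07 for LMP-like against macrophage-like cells. For this reason the split of calls under totals is given beside the main one, and a level can differ less, or the other way, than the fold change beside it.

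The 41 genes were most abundant in the osteogenic classes and least abundant in MALP-like cells. Their summed level was 196 ± 20.7 UMIs per 10000 in OBP-like (SD, n = 16), 203 ± 16.9 in OB2-like (n = 14), 170 ± 20 in OB1-like (n = 15) and 154 ± 19.8 in Ocy-like cells (n = 16). It was 109 ± 14 in LMP-like and 61.6 ± 4.44 in MALP-like cells (n = 16 each). The highest of the 16 MALP-like pools, at 72.1, lay below the lowest LMP-like pool, at 75.6, and the highest LMP-like pool, at 129, lay below the lowest OBP-like pool, at 146. The ranges of the 4 osteogenic classes overlapped. The 5 most abundant members gave between 43.8% and 51.3% of the sum in each class, so the sum mainly follows *Lox*, *Serpinh1*, *Serpinf1*, *P4ha1*, *P4hb*, *Ppib*, *Plod2* and *Pcolce*. By mean level, 16 members were highest in OBP-like, 10 in OB2-like, 7 in OB1-like, 3 in Ocy-like, 3 in MALP-like and 2 in LMP-like cells, while 31 of the 41 were lowest in MALP-like cells. The order of classes was not counted over all genes, so these counts have no background beside them.

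**Figure D1:**
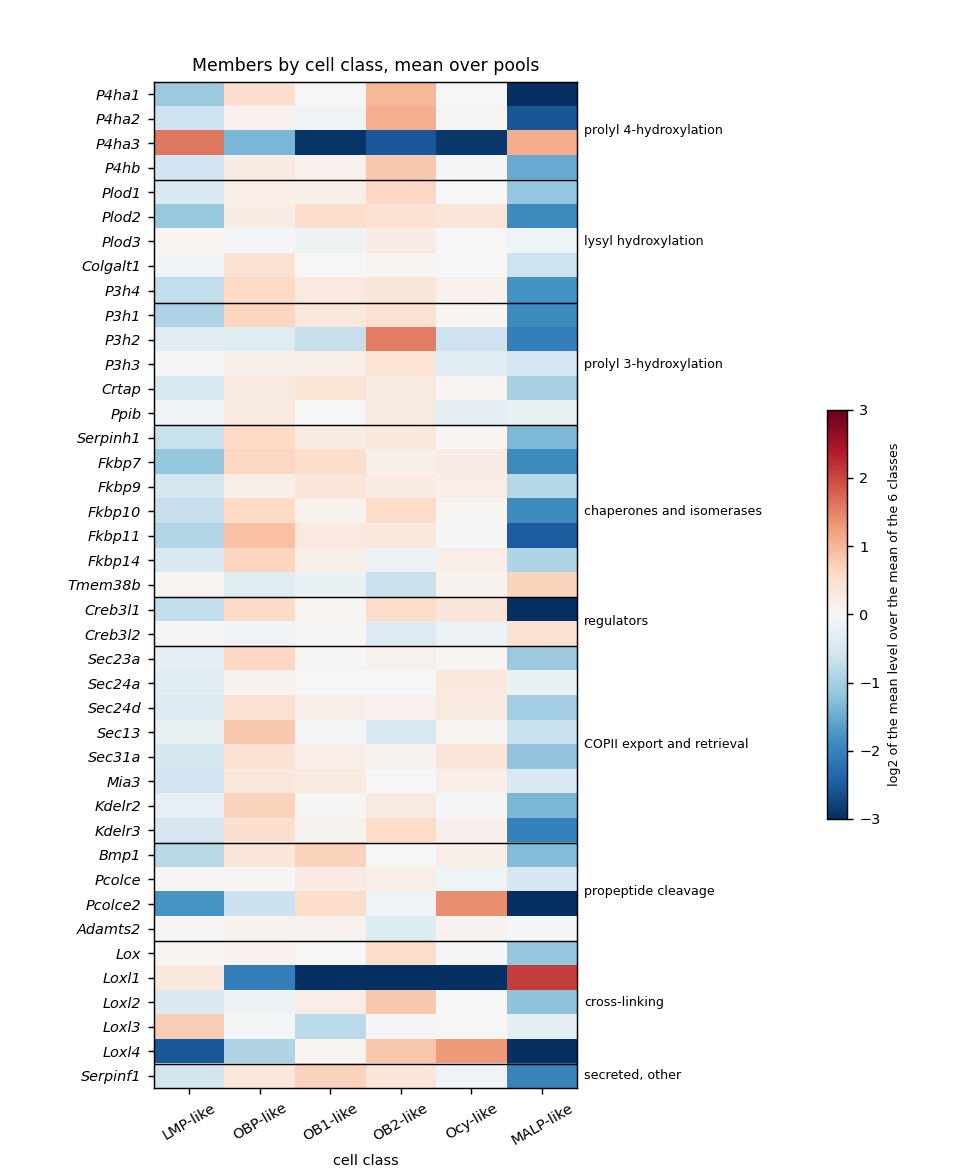
Level of the 41 genes in 6 cell classes, as the log2 of the class mean over the mean of the 6 classes (colour, ending at -3 and 3), with genes as rows grouped by role and classes as columns. The MALP-like column is the lowest for 31 genes, and *Loxl1*, *Tmem38b* and *Creb3l2* are highest there.

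Macrophage-like cells of the same cultures served to show how much of each transcript is found in cells that make little fibrillar collagen. Their summed level of the 41 members was 18 ± 2.07 UMIs per 10000 (n = 16). *Col1a1* itself, the main substrate, stood at 75.4 in LMP-like cells (median, range 57.8 to 106), 314.8 in OBP-like (205 to 375), 501 in OB1-like (457 to 689), 429 in OB2-like (334 to 456) and 471 in Ocy-like cells (247 to 527). In MALP-like cells it was 10.6 (4.33 to 15.5), against 11.3 (2.73 to 23.6) in macrophage-like and 10.7 (3 to 31.5) in T-cell-like cells. The MALP-like value thus did not rise above what was found in leukocytes and is not clear of background. Median depth was 10344 UMIs per cell in MALP-like, 5308 in macrophage-like and 2969 in T-cell-like cells. Equal levels can therefore stand for unequal counts per cell, and whether the MALP-like value is background was not tested.

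Against macrophage-like cells, LMP-like cells had higher levels of most of the pathway. Of 41 members, 37 were higher and 1 was lower (edgeR), where 46.1% of the 11703 genes tested were called higher and 38.3% lower. The median log2 fold change of the members was 3.26, and that of all genes 0.11. Under library totals the members split in the same way, 37 higher and 1 lower. *Loxl1* had the largest difference, at 0.44 to 0.873 UMIs per 10000 in LMP-like pools (median 0.669) and 0.00627 to 0.0515 in macrophage-like pools (median 0.0243). The ranges were apart, and the log2 fold change was 4.85 ± 0.12 (SE, adjusted p = 6.5e-20, higher in 16 of 16 pools). *Lox* followed at 4.64 ± 0.13, then *Adamts2*, the N-propeptide protease, at 4.56 ± 0.16, *Pcolce*, an enhancer of C-propeptide removal, at 4.33 ± 0.12 and *P4ha3*, a prolyl 4-hydroxylase subunit, at 4.28 ± 0.19.

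A few members did not follow. *Plod1* and *Colgalt1*, a lysyl hydroxylase and the collagen galactosyltransferase, and *Mia3*, which loads procollagen into COPII carriers, were not called, with log2 differences of -0.16 ± 0.10, -0.03 ± 0.05 and 0.01 ± 0.05. *Tmem38b*, which encodes an ER potassium channel, was lower in LMP-like cells, by -0.42 ± 0.08 (adjusted p = 0.0001, lower in 15 of 16 pools). Its level was 0.252 to 0.381 UMIs per 10000 in LMP-like and 0.259 to 0.584 in macrophage-like pools, and these ranges overlapped. When the droplets scored as doublets were kept, 20 of the members were higher and 9 lower in this comparison, and *Tmem38b* was not called (-0.08). The share of all genes called in that setting is not given here.

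Nearly the whole list was higher in OBP-like than in LMP-like cells. Since OBP-like cells also carried OB1 markers, this comparison is not one of early progenitors alone. Of 41 members, 36 were higher and 4 lower in OBP-like cells, against 36.5% of 12273 tested genes higher and 38.0% lower. The median log2 fold change was 1.16 for the members and -0.01 for all genes. Under library totals the members split into 31 higher and 5 lower, and the share of higher genes among all calls went from 49% to 24.4%. The 8 export and retrieval genes, the 5 genes of lysyl hydroxylation and the 4 of propeptide cleavage were all higher, as were 6 of 7 chaperones and isomerases, 4 of 5 genes of prolyl 3-hydroxylation, 3 of 4 of prolyl 4-hydroxylation and 3 of 5 lysyl oxidases.

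*Fkbp7* and *Fkbp11*, ER peptidyl-prolyl isomerases, had the largest increases. *Fkbp7* lay between 1.15 and 2.11 UMIs per 10000 in LMP-like pools (median 1.69) and between 3.97 and 7.37 in OBP-like pools (median 5.97). All OBP-like pools were above all LMP-like pools, with a log2 fold change of 2.09 ± 0.06 (adjusted p = 5.2e-17, 16 of 16 pools). *Fkbp11* rose in the same manner from 1.54 to 3.83 (median 2.79) to 5.74 to 11.9 (median 10.3), with a log2 fold change of 2.06 ± 0.07 and an adjusted p of 4e-16 in 16 of 16 pools.

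*P3h1*, the enzyme of the prolyl 3-hydroxylation complex, went from 0.487 to 0.928 UMIs per 10000 (median 0.773) to 1.72 to 2.65 (median 2.26). The groups did not overlap, and the log2 fold change was 1.86 ± 0.05 (adjusted p = 2.1e-17, 16 of 16 pools). Its partner *Crtap* rose by 1.05 ± 0.05 and *Ppib*, the isomerase that completes the complex, by 0.66 ± 0.05.

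*P4ha1*, the main catalytic subunit of prolyl 4-hydroxylase, had 1.09 to 4.92 UMIs per 10000 in LMP-like (median 3.95) and 4.42 to 15 in OBP-like pools (median 12.7). These ranges overlapped, but it was higher in 16 of 16 pools, with a log2 fold change of 1.94 ± 0.11 (adjusted p = 1.3e-12). *Loxl4*, a lysyl oxidase-like enzyme, was at 0.0455 to 0.269 in LMP-like (median 0.104) and 0.174 to 0.708 in OBP-like pools (median 0.316), also overlapping, with a log2 fold change of 1.96 ± 0.15 (adjusted p = 1.4e-10, 16 of 16 pools).

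The remaining increases reached the rest of the ER and export steps. *Serpinh1* rose by 1.55 ± 0.05, *Fkbp10*, a chaperone that works with *Plod2*, by 1.58 ± 0.06 and *Plod2*, which hydroxylates telopeptide lysines, by 1.64 ± 0.07 (log2, SE). *Creb3l1*, which encodes the ER-bound transcription factor OASIS, rose by 1.61 ± 0.10. Among COPII genes, the increases lay between 0.76 ± 0.05 for *Sec24a* and 1.31 ± 0.04 for *Sec13*, with 1.19 ± 0.05 for *Mia3* and 1.16 ± 0.05 for *Sec24d*. *Bmp1*, the C-propeptide protease, rose by 1.47 ± 0.07. Smaller calls did not survive the change of scaling, as *Plod3* (0.20), *Pcolce* (0.30), *Adamts2* (0.37) and *Lox* (0.41) were no longer called under library totals (-0.08, 0.01, 0.08 and 0.12). *Creb3l2*, called higher by 0.15, was called lower by -0.14 under totals, and its level was lower in 12 of 16 pools. *Pcolce* likewise had a lower level in 10 of 16 pools despite its call.

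The other 4 genes called were lower in OBP-like cells. *P4ha3* had 0.179 to 0.351 UMIs per 10000 in LMP-like (median 0.239) and 0.014 to 0.0541 in OBP-like pools (median 0.0292), without overlap, a log2 fold change of -2.67 ± 0.10 (adjusted p = 5.9e-16, lower in 16 of 16 pools). *Loxl1*, the lysyl oxidase-like enzyme best known for elastic fibres, went from 0.44 to 0.873 (median 0.669) to 0.0933 to 0.163 (median 0.137), also without overlap, a log2 fold change of -2.06 ± 0.08 (adjusted p = 1.5e-15, 16 of 16 pools). *Loxl3* was lower by -0.42 ± 0.10 (adjusted p = 0.00069, 16 of 16 pools) with overlapping ranges of 0.72 to 2.58 and 0.522 to 0.919. *Tmem38b* was lower by -0.14 ± 0.06 (adjusted p = 0.029, 15 of 16 pools), a call that was lost without the pool as a block, in the other sequencing run, without pool 13 and at a finer clustering. The mean OBP-like level of *P4ha3*, 0.0307, was above that of macrophage-like (0.0136) and granulocyte-like cells (0.0231) and below that of T-cell-like cells (0.0341), the last resting on 11 UMIs with 5 of 11 pools at 0, so these cells do not settle whether it exceeds background.

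Genes outside the list, chosen as context, did not all follow. Of 13 general ER chaperones such as *Hspa5* and *Calr*, 12 were higher and 0 lower in OBP-like cells, with a median log2 fold change of 0.54, and of 11 other COPII genes tested 9 were higher and 2 lower (median 0.86). Of 10 fibrillar collagen chains, 7 were higher and 3 lower (median 2.03). A list of 10 hypoxia-related genes such as *Ldha* and *Vegfa* had 1 higher and 6 lower (median -0.25).

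**Figure D2:**
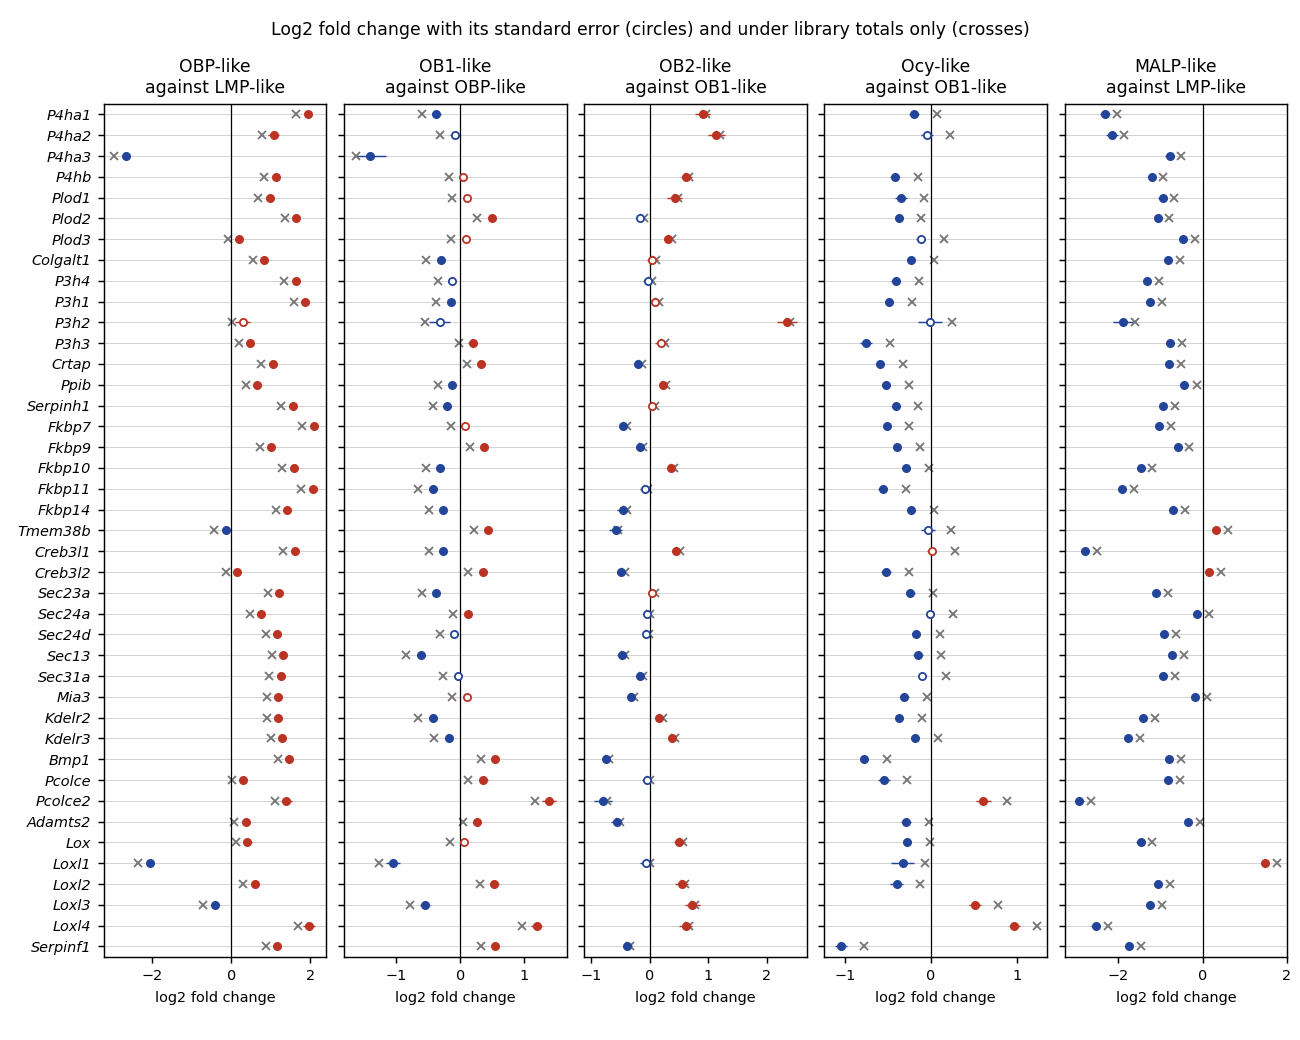
Log2 fold change of each gene (rows) in 5 class comparisons (panels), as circles with the standard error over pools, filled where the adjusted p was at most 0.05, with crosses for scaling by library totals alone. In OBP-like against LMP-like cells 36 of 41 genes are called higher, and in MALP-like against LMP-like cells 38 are called lower; crosses lie on the other side of 0 for *Creb3l2* and *Plod3* in the first and for *Mia3* and *Sec24a* in the last.

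OB1-like cells were compared with OBP-like cells, which also carried OB1 markers. Of 41 members, 14 were higher and 16 lower in OB1-like cells, against 29.4% of 10915 tested genes higher and 29.9% lower, so the members' shares were near those of all genes. The median log2 fold change was -0.04 for the members and -0.01 for all genes. Under library totals 10 were higher and 26 lower, and the share of higher genes among all calls went from 49.6% to 22.1%. With doublets kept, 33 were higher and 3 lower, and at a clustering resolution of 0.8, 16 were higher and 5 lower. The shares of all genes in these settings are not given here, so these counts show only that the split moved. The roles were not tested against each other. All 4 genes of propeptide cleavage were called higher, but *Pcolce* (0.36) and *Adamts2* (0.27) were not called under library totals (0.13 and 0.05), and the level of *Adamts2* was higher in 7 of 15 pools. Of the others, 4 of 8 export and retrieval genes were lower and 1 was higher, and 4 of 7 chaperones and isomerases were lower and 2 higher. The 2 of 4 prolyl 4-hydroxylation genes that were called were lower.

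Among the increases, *Pcolce2*, which encodes a procollagen C-proteinase enhancer, lay between 0.256 and 0.835 UMIs per 10000 in OBP-like (median 0.402) and between 0.485 and 1.51 in OB1-like pools (median 0.998). The ranges overlapped, but it was higher in 15 of 15 pools, by a log2 of 1.39 ± 0.11 (adjusted p = 2.4e-10). *Loxl4* rose by 1.19 ± 0.09 (adjusted p = 3.2e-11, 15 of 15 pools), from a median of 0.316 to 0.663. *Serpinf1*, which encodes the secreted factor PEDF, rose by 0.55 ± 0.06 (9e-08, 13 of 15), *Bmp1* by 0.54 ± 0.06 (1e-08, 14 of 15) and *Loxl2* by 0.53 ± 0.07 (adjusted p from edgeR 3.6e-07, 12 of 15). *Plod2*, an ER enzyme, rose by nearly as much, 0.49 ± 0.05.

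The decreases included ER and COPII genes that had risen in OBP-like cells. *Sec13*, an outer coat subunit of COPII, had 2.09 to 3.06 UMIs per 10000 in OBP-like (median 2.54) and 1.12 to 1.96 in OB1-like pools (median 1.38). Every OB1-like pool was below every OBP-like pool, with a log2 fold change of -0.61 ± 0.05 (adjusted p = 1.2e-10, 15 of 15 pools). *Fkbp11* was lower by -0.43 ± 0.06 (adjusted p = 2e-06, 14 of 15) and *Kdelr2*, the receptor that returns ER residents, by -0.42 ± 0.03. *Loxl1* was lower by -1.04 ± 0.11 (adjusted p = 9e-09, 15 of 15), *Loxl3* by -0.55 ± 0.08 (3.4e-06, 15 of 15) and *P4ha3* by -1.40 ± 0.25 (3.3e-05, 15 of 15). For *P4ha3* the OB1-like mean, 0.0104, was below that of macrophage-like cells, 0.0136, and is not clear of background. These values share the OBP-like samples with the comparison above. Of 13 general ER chaperones, 0 were higher and 11 lower in OB1-like cells (edgeR, median -0.52). *Fkbp11* and *Loxl3* turned to 0.29 and 0.33 when doublets were kept, a setting in which no OB2-like class was found.

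The 2 classes of mature osteoblasts were compared next. In OB2-like cells 15 of 40 members tested were higher and 13 lower than in OB1-like cells, against 29.6% of 11001 genes higher and 26.2% lower, with a median log2 fold change of 0.01 for the members and 0.02 for all genes, so both shares were near those of all genes. Under library totals 17 were higher and 10 lower, and the share of higher genes among all calls went from 53.1% to 60.7%. *P4ha3* did not pass the filter on low counts. All 3 prolyl 4-hydroxylation genes tested, 4 of 5 lysyl oxidases and 2 of 5 lysyl hydroxylation genes were higher. Of 5 prolyl 3-hydroxylation genes 2 were higher and 1 lower, and 3 of 4 propeptide cleavage genes and 4 of 7 chaperones and isomerases were lower. These counts changed with the way cells were classed, to 10 higher and 21 lower at a clustering resolution of 0.8 and to 7 higher and 26 lower when cells were gated one by one. Without the shares of all genes under these classings, which are not given here, such counts show only that the split moved.

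*P3h2*, a prolyl 3-hydroxylase best known for basement membrane collagen, was the member that set OB2-like cells apart most. It had 0.0211 to 0.3 UMIs per 10000 in OB1-like (median 0.0965) and 0.328 to 0.739 in OB2-like pools (median 0.551). The OB1-like low is that of pool 1, which is outside this test, and the lowest of the other pools was 0.0323. There was no overlap, and the log2 fold change was 2.34 ± 0.17 (adjusted p = 3.2e-09, 14 of 14 pools). In the other 4 mesenchymal classes its median was between 0.0395 and 0.145, and it was 0.00949 in macrophage-like cells.

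The prolyl 4-hydroxylase subunits rose together. *P4ha2* had 1.24 to 4.52 UMIs per 10000 in OB1-like (median 2.99) and 5.45 to 7.85 in OB2-like pools (median 6.57), without overlap and by a log2 of 1.14 ± 0.14 (adjusted p = 9.7e-07, 14 of 14). *P4ha1* went from 4.21 to 13.1 (median 7.93) to 11.3 to 22.7 (median 15.5), ranges that overlapped, by 0.91 ± 0.13 (adjusted p = 7.9e-06, 14 of 14). Its OB1-like low is again that of pool 1, with 4.45 the lowest of the others. *P4hb*, the shared beta subunit and a protein disulfide isomerase, went from 5 to 13.6 (median 8.57) to 11.7 to 16.2 (median 13.8), by 0.63 ± 0.10 (adjusted p = 1.6e-05, 14 of 14).

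Among the lysyl oxidases, *Loxl3* was higher by 0.73 ± 0.13 (adjusted p = 0.00012, 14 of 14), *Lox* by 0.51 ± 0.09, *Loxl2* by 0.55 ± 0.11 and *Loxl4* by 0.62 ± 0.11. *Creb3l1* was higher by 0.46 ± 0.08 and *Kdelr3* by 0.38 ± 0.05. At a resolution of 0.8 *P4ha1* (0.22) and *Loxl3* (0.08) were no longer called, and with cells gated one by one *P4hb* (0.06) was not. Of 10 hypoxia-related genes, 10 were higher in OB2-like cells (edgeR, median log2 fold change 1.04), as were 10 of 13 general ER chaperones, with 2 lower (median 0.36). *Car9*, on the hypoxia-related list, and *Egln3*, a relative of the listed *Egln1*, were among the leading genes of the OB2-like clusters. Each of these clusters had 1 OB2 marker among its leading genes, and in the cluster of 3706 cells this marker was *Egln3*. How far the markers themselves drew such cells into the class was not tested, so the hypoxia-related count is not independent of the naming. The same limit may hold for the OB2-like rises of *P4ha1*, *P4ha2* and *P3h2*.

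The 13 genes lower in OB2-like cells came from several steps. *Bmp1* had 2.75 to 5.02 UMIs per 10000 in OB1-like (median 3.77) and 1.85 to 2.91 in OB2-like pools (median 2.29). The ranges overlapped slightly, and it was lower in 14 of 14 pools, by -0.74 ± 0.07 (adjusted p = 8.7e-08). *Pcolce2* was lower by -0.79 ± 0.15 (adjusted p = 0.00018, 13 of 14), *Adamts2* by -0.56 ± 0.09 (5.1e-05, 13 of 14), *Tmem38b* by -0.58 ± 0.11 (0.00012, 12 of 14) and *Creb3l2* by -0.48 ± 0.07 (4.8e-06, 14 of 14). Of 9 fibrillar collagen chains tested, 2 were higher and 7 lower in OB2-like cells (median -0.55).

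**Figure D3:**
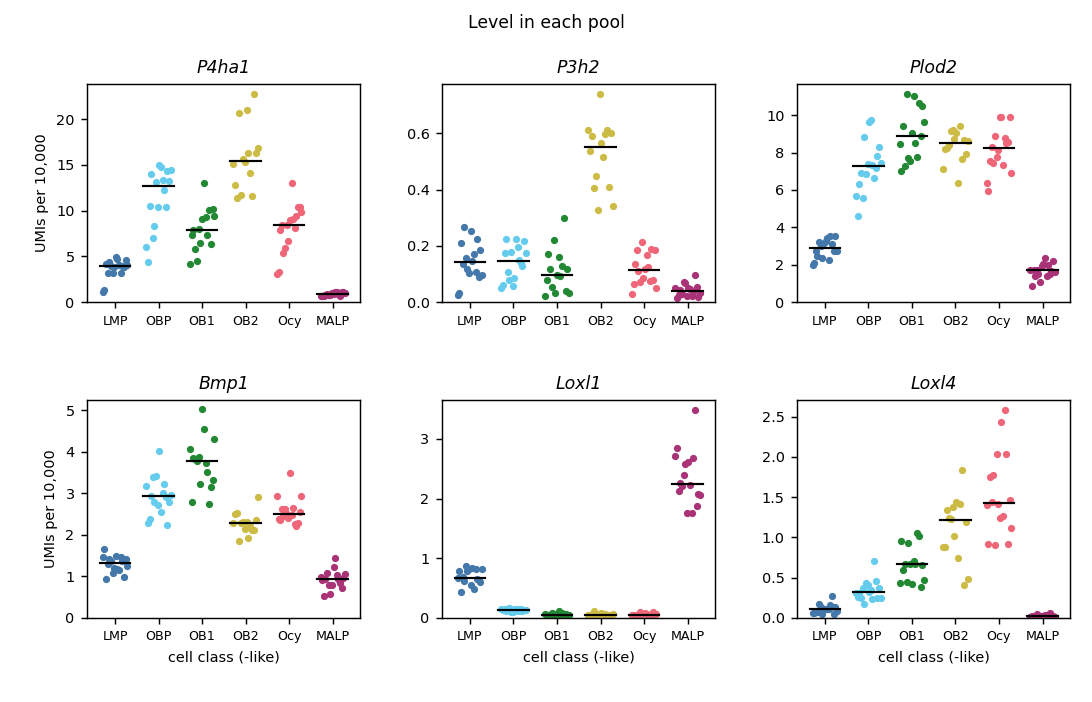
Level of 6 genes in UMIs per 10000 (vertical axis, from 0) in each of the 14 to 16 pools (points) of 6 cell classes (horizontal axis), with the median as a line. *P3h2* and *P4ha1* are highest in OB2-like cells, *Bmp1* in OB1-like, *Loxl4* in Ocy-like and *Loxl1* in MALP-like cells.

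The region before the transcription start is shown for the 3 prolyl 4-hydroxylation genes that rose together in OB2-like cells, and for *Kdelr3* as a member that holds a longer motif. The sequences are the 250 bases before the start in RefSeq (GRCm38.p6), written 5′ to 3′ on the strand of the gene, with capitals for the letters ACGTG, the core bound by hypoxia-inducible factors and shared by other factors, or for TGACGTGG, the motif of the ATF6 and CREB3 families, on either strand. The second contains the first. The window of *P4ha2*, the only one in the table for this gene, precedes a RefSeq start that lies inside the annotated gene (chr11:54100095-54131665).
P4ha1 (chr10:59323046-59323295, plus strand): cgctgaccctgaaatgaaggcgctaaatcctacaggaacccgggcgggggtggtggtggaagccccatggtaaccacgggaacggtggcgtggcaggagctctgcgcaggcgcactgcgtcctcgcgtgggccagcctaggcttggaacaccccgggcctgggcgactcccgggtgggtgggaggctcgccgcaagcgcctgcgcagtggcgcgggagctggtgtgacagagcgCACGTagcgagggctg
P4ha2 (chr11:54100674-54100923, plus strand): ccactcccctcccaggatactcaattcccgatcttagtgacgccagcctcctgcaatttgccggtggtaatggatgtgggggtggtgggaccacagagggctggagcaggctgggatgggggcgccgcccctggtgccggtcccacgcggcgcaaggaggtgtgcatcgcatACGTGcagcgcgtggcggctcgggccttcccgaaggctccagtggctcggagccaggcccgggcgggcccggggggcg
P4hb (chr11:120573254-120573503, minus strand): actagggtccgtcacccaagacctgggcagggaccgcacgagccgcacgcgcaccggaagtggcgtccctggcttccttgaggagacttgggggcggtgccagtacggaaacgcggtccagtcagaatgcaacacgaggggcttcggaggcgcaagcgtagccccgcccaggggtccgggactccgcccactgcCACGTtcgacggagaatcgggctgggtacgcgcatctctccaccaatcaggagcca
Kdelr3 (chr15:79516158-79516407, plus strand): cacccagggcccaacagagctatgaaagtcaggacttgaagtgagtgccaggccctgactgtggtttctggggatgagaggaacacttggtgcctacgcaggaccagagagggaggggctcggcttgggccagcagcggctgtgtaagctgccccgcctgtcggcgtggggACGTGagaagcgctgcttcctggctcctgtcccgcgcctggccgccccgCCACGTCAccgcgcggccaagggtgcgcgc

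The nearest edge of the ACGTG match lay 12 bases before the start in *P4ha1*, 74 in *P4ha2* and 52 in *P4hb*. Of the 41 members, 29 had at least 1 such window in the RefSeq table and 14 of these held ACGTG. Counted by window, 41.2% of 34 member windows held it, against 16.6% of 32851 windows of all genes and 21.8% of 12165 windows of genes tested in OBP-like against LMP-like cells. TGACGTGG was found in 2 members, *Kdelr3* and *Sec24d*, or 5.88% of member windows, against 0.563% of all windows. The ER stress element was found in 0 of the 34 member windows and in 0.113% of all windows. A match describes letters in a window and does not show that a factor binds there.

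Whether the list was lower in Ocy-like than in OB1-like cells depended on the scaling. Of 40 members tested, 3 were higher and 30 lower, against 23.6% of 9924 genes higher and 23.7% lower, with medians of -0.30 for the members and 0.02 for all genes (log2). Under library totals 10 members were higher and 15 lower, the share of higher genes among all calls went from 49.9% to 88.8%, and *Colgalt1*, *Fkbp14*, *Kdelr3*, *P4ha1*, *Sec13*, *Sec23a* and *Sec24d*, called lower at first, had a positive log2 fold change. The members called higher under totals alone were *P4ha2* (0.22), *Plod3* (0.15), *Tmem38b* (0.23), *Creb3l1* (0.28), *Sec24a* (0.26), *Sec31a* (0.17) and *Kdelr3* (0.08), and the level of *Creb3l1* was higher in 14 of 15 pools and that of *Sec24a* in 15 of 15. Leukocyte markers were also higher in Ocy-like cells, where the 7 macrophage markers summed to 0.691 to 3.33 UMIs per 10000 (median 1.02), against 0.121 to 0.442 in OB1-like (median 0.285) and 67.3 to 101 in macrophage-like cells. The value of 3.33 is that of pool 2, which is outside this comparison. All 7 were detected in each of these classes, and their part in the result was not tested. The Ocy-like class also held a cluster (784 cells, median depth 4837.5 UMIs) led by *Gm26917* and with *Gm42418*, *mt-Nd6* and *Malat1* among its top genes beside *Phex*, while the median was 12260.5 UMIs in all Ocy-like and 20028 in OB1-like cells. The part of this difference in depth and RNA quality was not tested.

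The 3 genes higher in Ocy-like cells kept their direction under both scalings. *Loxl4* had 0.378 to 1.05 UMIs per 10000 in OB1-like (median 0.663) and 0.908 to 2.58 in Ocy-like pools (median 1.43), higher in 15 of 15 pools by a log2 of 0.97 ± 0.06 (adjusted p = 1.1e-12). *Pcolce2* went from 0.485 to 1.51 (median 0.998) to 1.06 to 2.5 (median 1.78), by 0.61 ± 0.09 (adjusted p = 6.2e-06, 15 of 15), and *Loxl3* rose by 0.51 ± 0.07 (adjusted p = 9.4e-07, 15 of 15). In each case the ranges of the classes overlapped.

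*Serpinf1* fell most. It had 10.3 to 19.4 UMIs per 10000 in OB1-like (median 14.2) and 4.33 to 10.9 in Ocy-like pools (median 7.82), and although the ranges overlapped it was lower in 15 of 15 pools, by -1.05 ± 0.07 (adjusted p = 1.2e-11). *Bmp1* was lower by -0.78 ± 0.05 (adjusted p = 3e-12, 15 of 15), *P3h3*, a prolyl 3-hydroxylase that works with lysyl hydroxylase 1, by -0.75 ± 0.07 (1e-09, 15 of 15), *Crtap* by -0.59 ± 0.04 (6.8e-11, 15 of 15) and *Fkbp11* by -0.56 ± 0.05 (7.7e-10, 14 of 15). Under library totals the log2 fold changes of these 5 were -0.78, -0.51, -0.48, -0.32 and -0.29. The comparison shares its OB1-like samples with that of OB2-like cells.

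In MALP-like cells, the adipogenic branch, almost the whole list was lower than in LMP-like cells. Of 41 members, 3 were higher and 38 lower, against 39.9% of 12381 genes higher and 34.1% lower, with medians of -0.95 for the members and 0.04 for all genes (log2). Under library totals 5 were higher and 35 lower, and the share of higher genes among all calls went from 53.9% to 76.2%. *Mia3* and *Sec24a*, called lower by -0.17 and -0.13, were called higher by 0.11 and 0.15 under totals. The mean MALP-like level of *P4ha1*, *Plod1* and *Colgalt1* was no higher than in macrophage-like cells, and that of *Pcolce2* no higher than in T-cell-like cells. Every MALP-like pool was above every macrophage-like pool for 26 of the 41 members (26.8% of all genes), above every T-cell-like pool for 20 (16.6% of all genes) and above every granulocyte-like pool for 18 (33.2% of all genes), where all genes are those with a mean of at least 0.1 UMIs per 10000 in either class. The mean MALP-like level of *P4ha1*, *Pcolce2*, *Tmem38b* and *Loxl4* was no higher than in granulocyte-like cells, so the low MALP-like levels of *Pcolce2*, *P4ha1* and *Loxl4* in the fold changes below are not clear of background. That of *Creb3l1*, with a mean of 0.577, was above macrophage-like cells (0.181) but close to T-cell-like (0.547) and granulocyte-like cells (0.554), so it too is not clear of background.

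*Pcolce2* and *Creb3l1* fell most. *Pcolce2* had 0.0945 to 0.349 UMIs per 10000 in LMP-like (median 0.191) and 0.00885 to 0.0715 in MALP-like pools (median 0.0333), without overlap, by -2.93 ± 0.11 (adjusted p = 1.3e-14, 16 of 16 pools). *Creb3l1* went from 1.77 to 4.82 (median 3.25) to 0.361 to 0.865 (median 0.572), also without overlap, by -2.79 ± 0.09 (adjusted p = 2.2e-15, 16 of 16). *Loxl4* (-2.54 ± 0.11, adjusted p = 5.7e-14), *P4ha1* (-2.32 ± 0.13, 1.4e-12) and *P4ha2* (-2.15 ± 0.15, 8.5e-11) were each lower in 16 of 16 pools with ranges that overlapped. *Fkbp11*, *Kdelr3* and *Serpinf1* were lower by -1.91 ± 0.07, -1.77 ± 0.08 and -1.75 ± 0.06. All 10 hypoxia-related genes were also lower in MALP-like cells (median -1.50), as were 8 of 13 general ER chaperones, with 1 higher (edgeR, median -0.44).

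*Loxl1* was the clear exception. It had 0.44 to 0.873 UMIs per 10000 in LMP-like (median 0.669) and 1.75 to 3.48 in MALP-like pools (median 2.24). Every MALP-like pool was above every LMP-like pool, and the log2 fold change was 1.49 ± 0.08 (adjusted p = 1.5e-12, 16 of 16). Its median was 0.137 in OBP-like cells and 0.0404 to 0.051 in the OB1-like, OB2-like and Ocy-like cells, against 0.0243 in macrophage-like cells. The mean in Ocy-like cells, the lowest class, was 0.0514, close to that of granulocyte-like (0.0483) and T-cell-like cells (0.0422), so the levels in OB1-like, OB2-like and Ocy-like cells are not clear of background. The lowest OBP-like pool, at 0.0933, lay above the highest macrophage-like pool, at 0.0515. *Tmem38b* (0.32 ± 0.06, adjusted p = 3.6e-05) and *Creb3l2* (0.15 ± 0.04, adjusted p = 0.00069) were higher in 16 of 16 pools by less, with overlapping ranges. *Creb3l2* lost its call when no filter on low counts was used (0.09). The 2 related transcription factors thus moved in opposite directions, *Creb3l1* down and *Creb3l2* up.

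The levels of most members followed that of *Col1a1* from MALP-like through LMP-like to osteogenic cells. Over 93 points, 1 for each pool and mesenchymal class, the log2 levels of 33 of the 41 members had a Pearson r of at least 0.5 with *Col1a1*, and the median r was 0.849. Over all 7607 genes other than *Col1a1* with a mean of at least 0.1 UMIs per 10000, the median was -0.562 and 11.4% reached 0.5. These genes include the members that reach this mean. The points form separate groups, with MALP-like, LMP-like and osteogenic cells apart, so this r describes mainly these groups. The points also share libraries, depth and free RNA, and the MALP-like ones lie at a *Col1a1* level no higher than that of leukocytes. Within the osteogenic classes the orders differed. *Col1a1* had its lowest median there in OBP-like (314.8) and its highest in OB1-like cells (501). Of the members, 16 were highest in OBP-like and 7 in OB1-like cells. The highest values belonged to *Plod2* (0.956), *Creb3l1* (0.945) and *Kdelr3* (0.942), and the lowest to *Loxl1* (-0.955), *P4ha3* (-0.817) and *Tmem38b* (-0.719). *Creb3l2* (-0.65) and *Loxl3* (-0.15) were the only other members with a negative value.

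**Figure D4:**
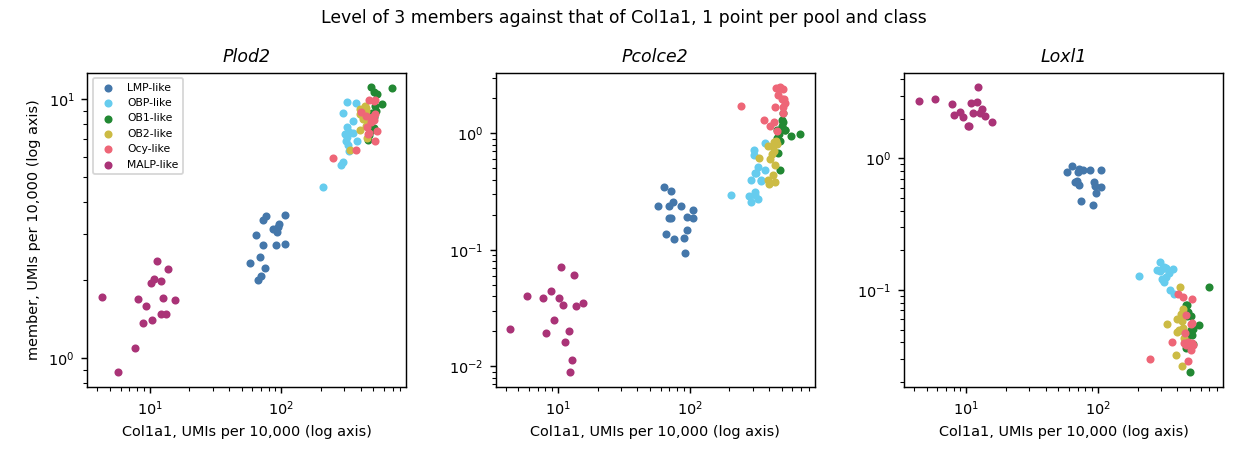
Level of *Plod2*, *Pcolce2* and *Loxl1* (vertical, log axis) against that of *Col1a1* (horizontal, log axis), both in UMIs per 10000, with 1 point per pool and class and colours for the 6 classes. *Plod2* rises and *Loxl1* falls with *Col1a1* from MALP-like through LMP-like to osteogenic cells, while within a class the points scatter.

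The values were lower after the class means were subtracted. The median r of the members fell to 0.222, against 0.00468 for the 7607 genes. Only *P4ha1* (0.53) and *Plod2* (0.517) of the members stayed at 0.5 or more, and they are among the 25 of the 7607 genes (0.329%) that did. The count of members was 0 without pools 1 and 2 and at resolution 0.8, 5 with doublets kept and 11 with cells gated one by one.

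Within single classes, 246 relations between a member and *Col1a1* were tested across pools by a permutation test with 100000 resamples (two-sided), with p-values adjusted over all of them. The number of members past an adjusted p of 0.05 was 1 of 41 in LMP-like, 10 in OBP-like, 9 in OB1-like, 0 in OB2-like, 9 in Ocy-like and 0 in MALP-like cells, all with a positive r. Of all genes with a mean of at least 0.1 UMIs per 10000 in the class, 0.448%, 1.67%, 1.36%, 0.0754%, 2.05% and 1.90% had a positive r and a permutation p as small as that of these members, in the same order of classes. At an unadjusted p of 0.05, with r in either direction, the permutation test gave 11, 17, 20, 2, 15 and 4 members, and 5.32%, 26.1%, 16.7%, 2.11%, 20.4% and 14.4% of all genes. Since *Col1a1* in MALP-like cells was at the leukocyte level, the MALP-like relations are not read as those of these cells' own collagen. By Spearman's rho the adjusted numbers were 2, 0, 6, 1, 0 and 0. The counts by Pearson's r depended strongly on how cells were classed. In LMP-like cells the 1 became 13 without the shallow cluster, 21 with cells gated one by one (20 with a positive r) and 24 with doublets kept. Of all genes, 2.12%, 5.16% and 3.78% had a positive r and as small a permutation p there. In OB1-like cells the 9 became 20 when gated (6.69% of all genes) and 0 with doublets kept (3.44%). In OB2-like and Ocy-like cells gating gave 16 and 22, of which 13 and 20 had a positive r, against 4.31% and 7.34% of all genes.

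In OB1-like cells *Crtap* had the strongest relation by Pearson's r (r = 0.82, permutation p = 2e-05, adjusted p = 0.00492; rho = 0.81, permutation p = 0.00045, adjusted p = 0.0221; n = 15 pools), and its r was 0.70 without the 2 pools farthest from the median of *Col1a1*. By rho *Kdelr2* (0.84), *Fkbp11* (0.83) and *Fkbp9* (0.82) were higher, and without those pools *P3h1* (r = 0.80) and *Kdelr2* (0.74) were. *P3h4*, which encodes a partner of lysyl hydroxylase 1, came second by r over all pools, with r = 0.81 (permutation p = 0.00024, adjusted p = 0.0192). Its rho was 0.80 (permutation p = 0.00056, adjusted p = 0.023), and its r was 0.68 without those pools. In OBP-like cells the 10 members past the threshold had r between 0.67 and 0.79, which fell to 0.35 to 0.61 without the pools farthest from the median, pools 2 and 7. In the OBP-like cells of pool 2 the LMP markers summed to 11.9 UMIs per 10000 against a median of 7.13. There the macrophage markers summed to 0.549 against 0.281, and the granulocyte markers to 0.0276 against 0.17. The part of these markers was not tested. In Ocy-like cells the 9 members past the threshold had r between 0.6 and 0.82, which fell to 0.06 to 0.56 without pools 2 and 1. Of these, *P4hb* (0.56) and *Fkbp11* (0.51) stayed at 0.5 or more, and the other 7 relations rest on those pools. In the Ocy-like cells of pool 2 the LMP markers summed to 37.8 UMIs per 10000 against a median of 3.38, the macrophage markers to 3.33 against 1.02 and the granulocyte markers to 5 against 0.578; their part in the result was not tested. With pools 1 and 2 left out, the counts were 0 in LMP-like, 0 in OBP-like, 5 in OB1-like and 0 in Ocy-like cells by the same permutation test.

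**Figure D5:**
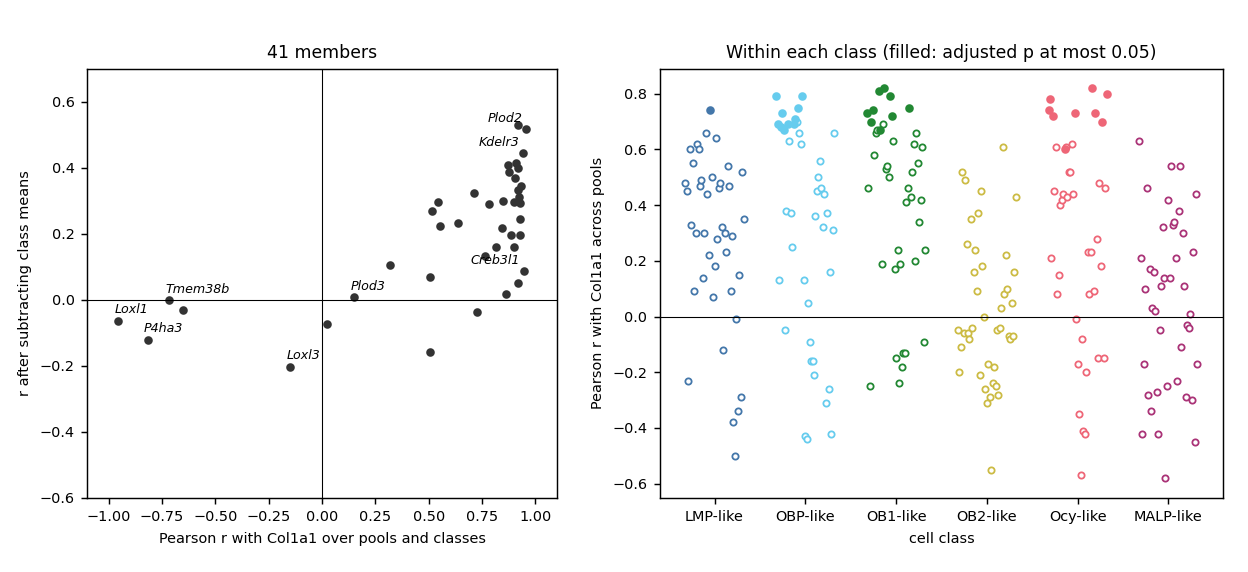
Left, Pearson r of the 41 genes with *Col1a1* over 93 pools and classes (horizontal) against r after the class means were subtracted (vertical); right, r across the 14 to 16 pools within each class, filled where the adjusted permutation p was at most 0.05. Most genes lie at a high r on the left panel's horizontal axis. On its vertical axis they run from -0.203 (*Loxl3*) to 0.53 (*P4ha1*) with a median of 0.222. On the right, 29 of the 246 relations are filled.

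Pools 1 and 2 held the lowest level of many genes. In LMP-like cells pool 1 was lowest for 26 of the 41 members and for 10.5% of all genes with a mean of at least 0.1 UMIs per 10000, and in OBP-like cells pool 2 was lowest for 19 members and for 14.6% of all such genes. Pool 1 had 3502 LMP-like cells, while without the shallow cluster no pool had more than 1344. Its median depth over all cells was 2936 UMIs. The part of depth in these levels was not tested. Other pools held many extremes of the members too, with pool 3 lowest for 16 in MALP-like cells and pool 10 highest for 20 in OB1-like and 19 in Ocy-like cells. The share of all genes was not counted for these pools, so whether this is particular to the members is not known. Pool 10 had 56 OB1-like cells and the highest OB1-like level of *Col1a1*, 689.4. In LMP-like cells *P4ha1* was at 1.09 and 1.31 UMIs per 10000 in pools 1 and 2, and between 3.17 and 4.92 in the other 14. The same was true of *P4ha2*, at 0.631 and 0.905 against 1.62 to 3.03, of *P3h2*, at 0.0237 and 0.033 against 0.088 to 0.266, and of *Kdelr3*, at 1.2 and 1.32 against 1.67 to 2.64. *Plod2* (2 and 2.07 against 2.22 to 3.56) and *Lox* (10.4 and 16.2 against 17.3 to 38.8) were also lowest there, whereas *P4ha3* in both pools and *P3h1* in pool 2 lay within the range of the others. In Ocy-like cells *P4ha1* was again lowest there, at 3.09 and 3.27 against 5.37 to 13, while in MALP-like cells pool 1 lay within the range of the others (0.636 and 0.607 against 0.631 to 1.12). The 10 hypoxia-related genes summed to 34.1 and 32.6 in the LMP-like cells of these pools and to 52.6 to 75.8 in the others. The sums were also below those of every other pool in Ocy-like cells (24.9 and 21.4 against 34 to 51.2) and, for pool 1, in OB1-like cells (28.3 against 31.9 to 59.2). In OBP-like cells their sums of 40.6 and 35.2 lay within the range of the others, 34.3 to 57.8, although *P4ha1* was lowest there (6.02 and 4.42 against 7.03 to 15), and in MALP-like cells the sums of 27.5 and 22.9 lay within 19.5 to 40.9. OB2-like cells reached 20 in neither, and the markers of that class included *Egln3*, a relative of the hypoxia-related *Egln1*, so its naming is not independent of such genes. With both pools left out, the counts of members higher and lower stayed at 36 and 4 for OBP-like against LMP-like, 3 and 38 for MALP-like against LMP-like, and 3 and 30 for Ocy-like against OB1-like cells. The shares of all genes in this setting, and the other comparisons, are not given here. These counts therefore show only how the members moved.

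Members that work as partners, and the alternative subunits *P4ha1* and *P4ha2*, were compared over the same 93 points. After subtraction of class means, the median r over all 820 pairs of members was 0.24. The COPII subunits *Sec23a* and *Sec24d* had r = 0.82, the chaperones *Fkbp10* and *Serpinh1* 0.82, and *P3h4* and *Plod1* 0.66. *P4hb* had 0.72 with *P4ha1* and 0.77 with *P4ha2*, and these became 0.66 and 0.71 without pools 1 and 2. For *P4ha1* and *P4ha2* r was 0.80, and 0.58 without those pools. *P3h1* and *Crtap*, which form a complex, reached 0.33, and *Bmp1* and its enhancer gene *Pcolce2* had -0.01. These values describe shared libraries as well as the genes themselves.

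The members varied slightly less between pools than all genes did in each of the 6 classes. Genes were not matched by level, so whether this is particular to the members is not known. The median coefficient of variation (SD over mean) of the members was 0.149 in OBP-like and 0.157 in OB2-like cells, where all genes at a mean of at least 0.1 UMIs per 10000 had 0.165 and 0.164. *Crtap* varied least in LMP-like (0.0896), OBP-like (0.0721) and Ocy-like cells (0.108), and *Kdelr3* in OB2-like cells (0.0538). Among the members at such a mean, *P3h2* varied most in OBP-like (0.441), OB1-like (0.702) and Ocy-like cells (0.484), and *Loxl4* in LMP-like (0.515) and OB2-like cells (0.358).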

How the data were processed

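The authors aligned reads with Cell Ranger 5.0.0 to mm10 and deposited UMI counts per gene and barcode, without normalization and before their cell filters; annotation release is not given in the sources used here. Cells were kept at 400 to 6200 genes, with mitochondrial UMIs up to 10%, *Rpl* up to 20% and *Rps* up to 15%, the highest doublet scores were removed (0.8% per 1000 barcodes), and 84506 cells were clustered (15 principal components of 3000 variable features after regression on cell-cycle scores, 20 neighbours, Louvain in igraph 0.11.9 at resolution 0.5, osteogenic clusters clustered again). Pools shared 3 to 28 barcodes with each other. Classes were named from marker lists; members and lists were chosen with earlier results of these data known.

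Counts summed per pool and class went into the quasi-likelihood test of edgeR 4.0.16 (R 4.3.3), after filterByExpr and TMM, with the pool as a block because both classes come from the same mice. Deviations of the same pool correlated between paired classes (lowest 0.0653, medians 0.226 to 0.465), unlike those of different pools (medians -0.0366 to -0.0211). The SE is the absolute log2 fold change over the square root of F. The test was checked on simulated data. In each comparison, up to 5 members higher and 5 lower, called and moving the same way in at least 75% of pools, get full statistics. Correlations used log2 of the level + 0.01. Alternatives were DESeq2 1.42.0, library totals, no filter, no block, the other run, at least 50 cells, without pool 13 (84.48% of its barcodes recurred between runs), resolution 0.8, doublets kept and cells gated one by one. Chosen after seeing the data were the fits without the shallow cluster and without pools 1 and 2.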

Additional observations from a re-analysis of the deposited data

How the results depend on the processing

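Of 574 values of the 51 named fold changes under the alternatives, 556 kept their direction and side of the threshold, 16 lost the call and 2 reversed, *Loxl3* (0.33) and *Fkbp11* (0.29) in OB1-like against OBP-like cells with doublets kept. With doublets kept, which also led to new clusters and classes, 33 were higher and 3 lower in OB1-like against OBP-like cells, 20 higher and 9 lower in LMP-like against macrophage-like cells, and OB2-like cells gave no value. At resolution 0.8, 5 were lower in OB1-like against OBP-like cells, 21 in OB2-like against OB1-like cells and 4 in LMP-like against macrophage-like cells. With cells gated one by one, 7 were higher and 26 lower in OB2-like against OB1-like cells, and 4 lower in LMP-like against macrophage-like cells. Library totals gave 26 lower in OB1-like against OBP-like cells, 10 higher and 15 lower in Ocy-like against OB1-like cells and 5 higher in MALP-like against LMP-like cells. Without the pool as a replicate block, 36 were higher and 3 lower in OBP-like against LMP-like cells and 25 lower in Ocy-like against OB1-like cells, and no count of members moved by over 1.5 times. The number of members at r of at least 0.5 with *Col1a1* after subtraction of class means was 0 at resolution 0.8, 5 with doublets kept, 11 with gated cells and 0 without pools 1 and 2. Brackets below give the share of all genes with a positive r and a permutation p as small in that setting. Members past the threshold within a class numbered, in LMP-like cells, 6 at resolution 0.8 (0.534%), 24 with doublets kept (3.78%) and 21 with gated cells (5.16%). They were 13 without the shallow cluster (2.12%) and 0 without pools 1 and 2 (0.0775%). In OBP-like cells they were 4 at resolution 0.8 (0.707%), 16 with doublets kept (8.58%) and 0 without pools 1 and 2 (0.0144%). For OB1-like cells they were 0 with doublets kept (3.44%), 20 with gated cells (6.69%) and 5 without pools 1 and 2 (0.387%). In OB2-like cells they were 1 at resolution 0.8 (0.433%) and 16 with gated cells (4.31%), and in Ocy-like cells 22 with gated cells (7.34%) and 0 without pools 1 and 2 (0.0278%). For MALP-like cells they were 1 in the other run (1.99%), 1 without pool 13 (1.52%), 1 without the shallow cluster (3.09%) and 6 with gated cells (1.21%). A positive r was held by 20 of the 21 in LMP-like, 13 of the 16 in OBP-like, 13 of the 16 in OB2-like and 20 of the 22 in Ocy-like cells. Over the classes and alternatives, 0.00% to 8.58% of all genes had a positive r and a permutation p as small as the members past the threshold, the highest in OBP-like cells with doublets kept. For the class comparisons, the shares of all genes under the other classings are not given here, so those counts show only how the members moved. The cause of these shifts was not tested. Depth limits the lowest genes, as *P4ha3* did not pass the filter in 2 comparisons.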
